A study of Homo sapiens with 2 samples.

Results

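The genes described here are 9 genes of transforming growth factor beta (TGF-beta) and bone morphogenetic protein (BMP) signaling, TGFB1, TGFB2, INHBA, SMAD3, SMAD6, SMAD7, ID1, ID2 and ID3. They were chosen by symbol, with earlier results of these data known, and all 9 were found among the 44591 genes of the count table. Shares of all genes are given beside theirs as a description and not as a test. Total RNA was sequenced from HSC-1 cells, a line labelled as cutaneous squamous cell carcinoma, after transfection with the control siRNA siNC or with siLINP1, an siRNA against the long noncoding RNA LINP1, with 1 library per condition. Per the labels, both cultures were transfected at about 70% confluency, kept without serum for 6 h and then held for a further 24 h in medium with 10% serum. The authors' general transfection methods state another confluency and another time before RNA extraction. No stated treatment added TGF-beta, activin or BMP. With 1 library per condition no difference has a replicate check, no p-value was computed, and every 95% interval below covers counting error only.

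TGF-beta and activin ligands act through paired type I and type II receptor kinases that phosphorylate SMAD2 and SMAD3, whereas BMP ligands lead to phosphorylation of SMAD1, SMAD5 and SMAD9. Each phosphorylated SMAD joins SMAD4 in the nucleus, where the BMP branch is known for switching on the ID genes and both branches for switching on the inhibitory SMADs, SMAD6 and SMAD7, which restrain the receptors in turn. In squamous epithelium TGF-beta is known as a brake on keratinocyte growth and, in carcinoma, as an inducer of mesenchymal features. By these roles ID1, ID2, ID3, SMAD6 and SMAD7 are response genes, while TGFB1, TGFB2, INHBA and SMAD3 are parts of the signal itself.

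Gene-assigned reads came to 18829544 for siNC and 15383081 for siLINP1. The targeted LINP1 was counted with 167 reads under siNC and 23 under siLINP1, 6.28-fold lower (95% interval 4.05 to 10.2) after scaling by median-of-ratios size factors. Of 10 squamous keratinocyte markers, 5 were under 1 RPKM (read count normalised to gene length and library total) in both libraries, among them TP63 with 6 and 8 reads in siNC and siLINP1. The best read of them were ITGB4 at 51.4 and 41.6 RPKM, SFN at 10.7 and 6.82, KRT14 at 7.89 and 3.46 and DSP at 3.79 and 3.40. KRT14, a basal keratin, was 2.42-fold lower in siLINP1 (log2 fold change -1.27, 95% interval -1.64 to -0.91) and SFN 1.65-fold lower (-0.73, -1.03 to -0.42). ITGB4 (-0.39, -0.45 to -0.33) and DSP (-0.24, -0.41 to -0.073) were lower by less than 1.5-fold, so each of these best read markers was lower beyond counting error. CDH1, with 14 and 3 reads, was also lower (-2.01, -4.45 to -0.17). Of the 10 markers, 4 lay above and 6 below no change, with 3 higher and 3 lower by more than 1.5-fold. Only 1, KRT14, had its whole interval past that fold. The higher ones, KRT6A (31 and 45 reads), PKP1 (5 and 8 reads) and TP63, had few reads. The mesenchymal gene VIM had 61097 and 41992 reads (log2 fold change -0.33, 95% interval -0.35 to -0.31). Of 6 markers of blood and endothelial cells, CD3E and HBB were at 0 reads in both libraries, PTPRC, PECAM1 and CDH5 had at most 9 reads, and CD68, a lysosomal protein used as a macrophage marker, stood at 48.7 and 45.8 RPKM. The part of these marker differences in the values below was not tested. In bulk RNA, fewer cells of a type and less RNA per cell cannot be told apart.

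The siRNAs listed for LINP1 are shown because they define the comparison, and which of them was used for sequencing is not given in the sources used here. Both match the plus strand of GRCh37, at chr10:6780757-6780775 and chr10:6780487-6780505, inside an exon of each of the 4 annotated LINP1 transcripts. Capitals mark the stretch that pairs with the seed, bases 2 to 8, of the guide strand.
siLINP1_01: ccaactgcgggACTTCAGa
siLINP1_02: cactctccagcCTGCAAGa
The longest annotated 3′ untranslated region (3′UTR) of 6 of the 9 genes held neither 7-letter stretch, including those of TGFB1, SMAD6, ID1 and ID2. That of INHBA held the stretch of siLINP1_01 at 1 place and that of TGFB2 at 2 places, and that of SMAD3 held the stretch of siLINP1_02 at 1 place. Among 13658 genes kept that have an annotated 3′UTR, 20.4% held the former and 17.8% the latter. A match is a description and not a sign of targeting.

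The 9 genes did not move together. Relative to siNC, siLINP1-treated HSC-1 cells had more INHBA and ID2 and less SMAD6 by over 1.5-fold, ID1 and TGFB1 were lower by less than that, and SMAD3, SMAD7, ID3 and TGFB2 had intervals that include no change. Thus 2 of the 9 genes (22.2%) were higher and 1 (11.1%) was lower by over 1.5-fold, the fold criterion of the study. Among the 19840 genes kept, whose reads in the pair of libraries came to 10 or more, 14.4% were higher and 13.0% lower by this measure. Among the 13336 genes with at least 100 reads, which include all of the 9 except TGFB2, 8.72% were higher and 6.77% lower. ID2 passed that minimum through its 95 reads in siLINP1, against 38 in siNC. The whole interval lay past 1.5-fold for the same 3 genes, against 3.98% of genes kept on the higher side and 2.06% on the lower side, and 4.18% and 1.97% of those with at least 100 reads. The median log2 fold change of the 9 genes was -0.062, beside -0.023 over all genes kept. By depth, 26.1% of the genes with 10 to 99 reads were higher by more than 1.5-fold. Among genes with at least 100 but below 1000 reads, where SMAD6 and ID2 lie, 12.4% were higher and 10.4% lower. Among the 1343 genes with at least 5000 reads, where INHBA lies, 4.54% were higher. A given fold is thus less unusual at low counts.

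**Figure D1:**
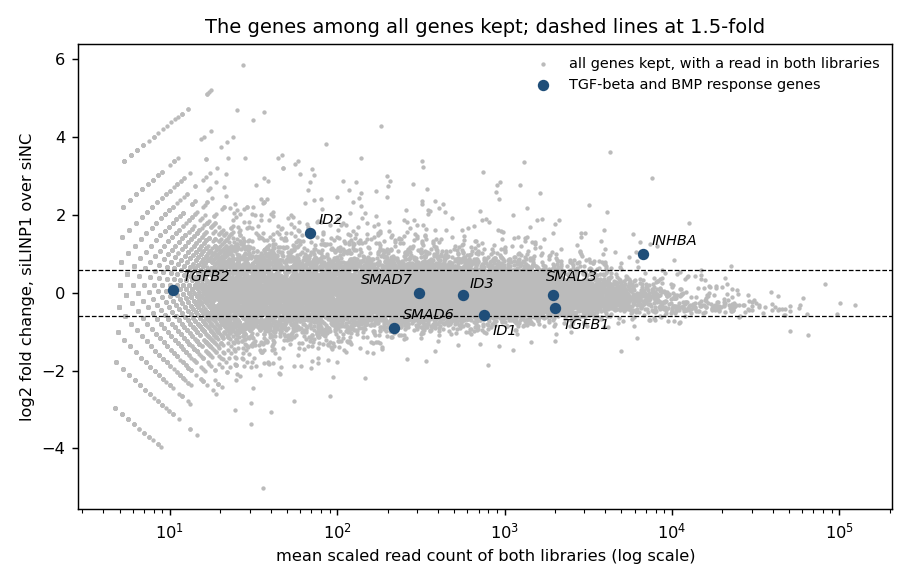
Log2 fold change of siLINP1 over siNC (vertical axis) against the mean scaled read count of both libraries (log scale, horizontal axis) for the genes kept that had a read in both libraries (grey) and the 9 TGF-beta and BMP genes (blue), with dashed lines at 1.5-fold. INHBA and ID2 lie above the upper line, SMAD6 lies below the lower line, and ID1, at 0.667 of its siNC level, lies at the lower line.

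Compared per gene length, the 9 genes spanned a wide range of levels. RPKM is scaled by the library total and the fold changes by size factors. A ratio of siLINP1 to siNC RPKM therefore lies 0.082 above the reported log2 fold change. In siNC-treated cells TGFB1 stood highest at 47.2 RPKM (95% Poisson interval 45.3 to 49.1), followed by INHBA at 42.3 and ID1 at 41.8, which did not differ from each other beyond counting error. ID3 at 26.4 RPKM and SMAD3 at 17.3 RPKM came next. SMAD6 at 5.40 and SMAD7 at 5.10 RPKM could not be told apart, ID2 reached 1.48 RPKM, and TGFB2 was lowest at 0.0973 RPKM.
In siLINP1-treated cells the order changed at the top and at the bottom. INHBA stood first at 88.8 RPKM (86.9 to 90.8), above 96.7% of the genes kept against 91.5% in siNC. TGFB1 followed at 38.3 RPKM. ID1 at 29.5 and ID3 at 26.8 RPKM had overlapping intervals, which they did not have in siNC. ID2 at 4.53 RPKM reached the range of SMAD7 at 5.36 RPKM and passed SMAD6 at 3.07 RPKM. TGFB2 stayed last at 0.108 RPKM.

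**Figure D2:**
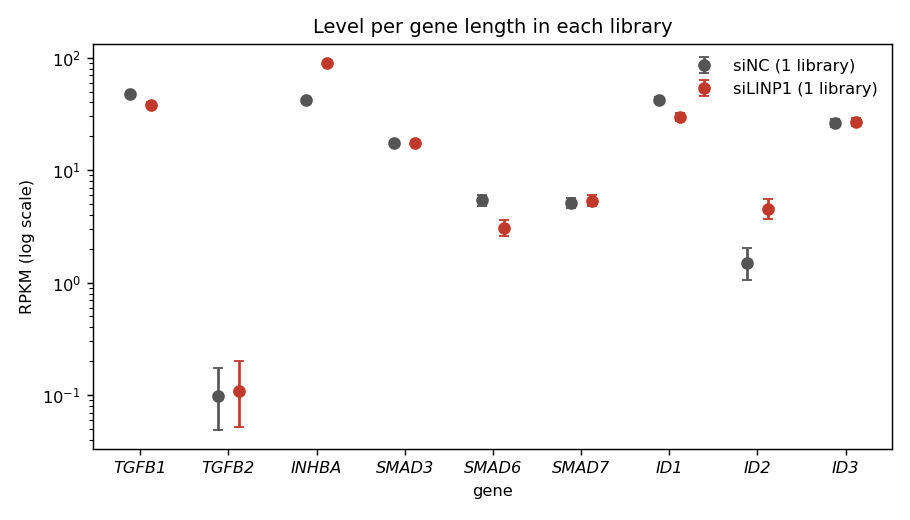
Level of each gene in RPKM (log scale) in the siNC library (grey) and the siLINP1 library (red), 1 library each, with exact 95% Poisson intervals that cover counting error only. INHBA moved from 42.3 to 88.8 RPKM and ID2 from 1.48 to 4.53 RPKM, while SMAD6 moved from 5.40 to 3.07 RPKM. RPKM is scaled by the library total and not by the size factors used for fold changes.

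Among the ligands, INHBA encodes the beta A subunit, a pair of which forms activin A. It lies on the minus strand of chromosome 7 (GRCh37, 41724712 to 41742706) and collected 4832 reads under siNC against 8288 under siLINP1. After scaling it was 1.98-fold higher in siLINP1, with a log2 fold change of 0.99 (0.94 to 1.04). INHBA ranked at place 372 from the highest log2 fold change among the 13336 deeper genes. INHBA-AS1, annotated on the opposite strand across 9193 bases of the same locus, had 23 and 22 reads. Since the strand setting of the counting is not given in the sources used here, reads of the pair cannot be told apart where they overlap. An unnamed transcript annotated on the same strand across the whole INHBA locus had 0 and 3 reads.
TGFB1 encodes the TGF-beta isoform most abundant in most tissues. Its reads numbered 2435 under siNC and 1615 under siLINP1, and it was 1.30-fold lower (log2 fold change -0.38, 95% interval -0.47 to -0.29). This difference exceeds counting error but not the 1.5-fold criterion, and TGFB1 stood at place 2239 from the lowest value among the 13336 deeper genes.
TGFB2, a second TGF-beta isoform, was barely detected, with 11 reads under siNC and 10 under siLINP1, and the transcript TGFB2-OT1 on its strand had 2 and 4 reads. Its interval, from -1.32 to 1.45 on the log2 scale, shows that even a doubling or a halving was not detectable at this depth. TGFB2 made up 0.450% of the reads of the pair TGFB1 and TGFB2 in siNC (Clopper-Pearson interval 0.225% to 0.803%) and 0.615% in siLINP1 (0.295% to 1.13%). The difference of their log2 fold changes, -0.45 for TGFB1 minus TGFB2, had an interval from -1.69 to 0.78.

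**Figure D3:**
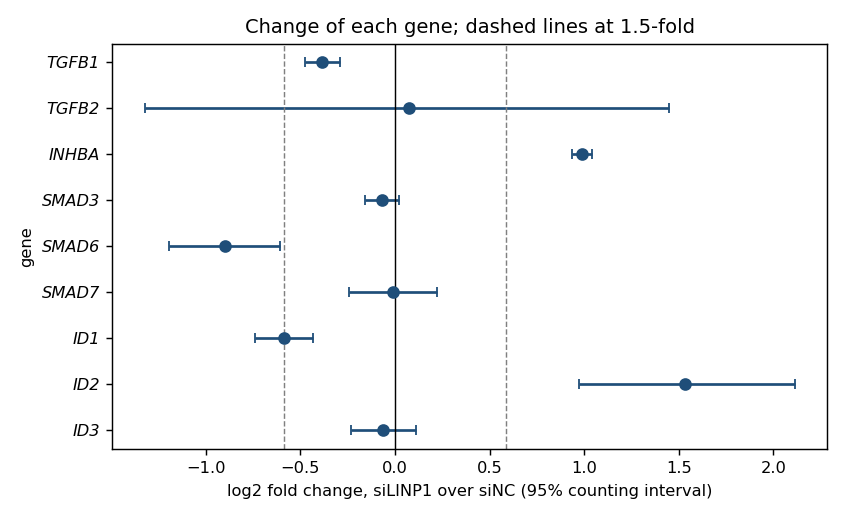
Log2 fold change of each gene, siLINP1 over siNC, with 95% Clopper-Pearson intervals (counting error only) and dashed lines at 1.5-fold. The intervals of INHBA (0.94 to 1.04), ID2 (0.97 to 2.11) and SMAD6 (-1.20 to -0.61) lie wholly beyond a dashed line, and those of SMAD3, SMAD7, ID3 and TGFB2 cross 0.

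SMAD3, the transcription factor phosphorylated by TGF-beta and activin receptors, had 2159 and 1780 reads in siNC and siLINP1, a log2 fold change of -0.07 (95% interval -0.16 to 0.022). A change of 1.5-fold in either direction lies outside this interval. The sign of this value turned to 0.013 when libraries were scaled by their total count, which raises every log2 fold change by 0.082.
The inhibitory SMADs separated from each other. SMAD6, which is known to act mainly on BMP receptors and SMAD1, went from 306 reads under siNC to 142 under siLINP1, 1.86-fold lower (log2 fold change -0.90, 95% interval -1.20 to -0.61). SMAD7, which acts on TGF-beta and BMP receptors alike, had 331 and 284 reads (log2 fold change -0.01, 95% interval -0.25 to 0.22). The log2 fold change of SMAD6 was lower than that of SMAD7 by -0.89 (95% interval -1.25 to -0.52), and lower than that of SMAD3, also on chromosome 15, by -0.83 (-1.13 to -0.53). SMAD6 took 48.0% of the reads of both inhibitory SMADs in siNC (44.1% to 52.0%) and 33.3% in siLINP1 (28.9% to 38.0%). SMAD6 stood at place 239 from the lowest log2 fold change among the 13336 deeper genes.

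All 9 genes had an entry in a RefSeq promoter table of GRCh38.p14, in 15 windows that span 250 bases before to 50 bases after a start site, and each window was found at a single place in GRCh37 by exact match. The window of SMAD6 is shown because it held, alone among the 15, the palindrome GTCTAGAC, the sequence selected by purified SMAD3 and SMAD4. It lies on the plus strand at chr15:66994324-66994623 (GRCh37), with the palindrome in capitals, starting 12 bases before the start site.
SMAD6 promoter: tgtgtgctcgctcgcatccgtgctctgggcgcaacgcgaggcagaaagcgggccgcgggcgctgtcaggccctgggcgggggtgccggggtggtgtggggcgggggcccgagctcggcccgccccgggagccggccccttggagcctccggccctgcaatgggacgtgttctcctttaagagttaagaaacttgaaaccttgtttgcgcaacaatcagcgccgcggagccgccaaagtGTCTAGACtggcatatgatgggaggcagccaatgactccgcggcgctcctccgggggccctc
This palindrome occurred in 71 of 35116 promoter windows of the table, or 0.202%. The other letters searched, on both strands, with no overlap between matches of different elements in these windows, were GGCGCC, a GC-rich element of BMP-activated SMADs found in 19.2% of windows, TGACGTCA, the cyclic AMP response element, in 1.85%, TGAGTCA, the AP-1 element, in 4.95%, and TATAAA, the TATA element, in 11.5%. GGCGCC was found at 2 places in one window of SMAD3 and TGAGTCA in another, and TATAAA in windows of INHBA, TGFB2, SMAD7 and ID1. No binding was measured in these samples, and a match or its absence says only which letters the window holds.

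The ID genes encode helix-loop-helix proteins without a DNA-binding region, which hold back differentiation by binding E proteins, and all are textbook targets of BMP signaling. They diverged in siLINP1-treated cells. ID2 on chromosome 2 (8822113 to 8824583, plus strand) was counted 38 times under siNC and 95 times under siLINP1, 2.89-fold higher (log2 fold change 1.53, 95% interval 0.97 to 2.11). Its low count leaves a wide interval, with a fold anywhere from 1.96 to 4.33. Its log2 fold change stood at place 119 from the highest among the genes with at least 100 reads. ID2 passed that minimum through its 95 reads in siLINP1, so this place partly follows from the filter and is a description only.
ID1 on chromosome 20 (30193086 to 30194318, plus strand) had 971 and 560 reads, or 0.667 of its siNC level (log2 fold change -0.58, 95% interval -0.74 to -0.43), which is just short of the criterion. ID3 on chromosome 1 (23884421 to 23886285, minus strand) had 617 and 511 reads, with a tRNA row that overlaps it at 2 and 3 reads (log2 fold change -0.06, 95% interval -0.23 to 0.11).
Each pair of ID genes differed by more than counting error. The log2 fold change of ID1 minus that of ID2 was -2.12 (95% interval -2.68 to -1.55), that of ID1 minus ID3 was -0.52 (-0.75 to -0.30), and that of ID2 minus ID3 was 1.59 (1.03 to 2.16). ID2 contributed 2.34% of the reads of the 3 ID genes in siNC (1.66% to 3.19%) and 8.15% in siLINP1 (6.64% to 9.87%), while the part of ID1 was 59.7% and 48.0%. Summed over ID1, ID2 and ID3, the reads went from 1626 to 1166, a log2 fold change of -0.27 (95% interval -0.38 to -0.16), a sum that mostly follows ID1 and ID3.

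**Figure D4:**
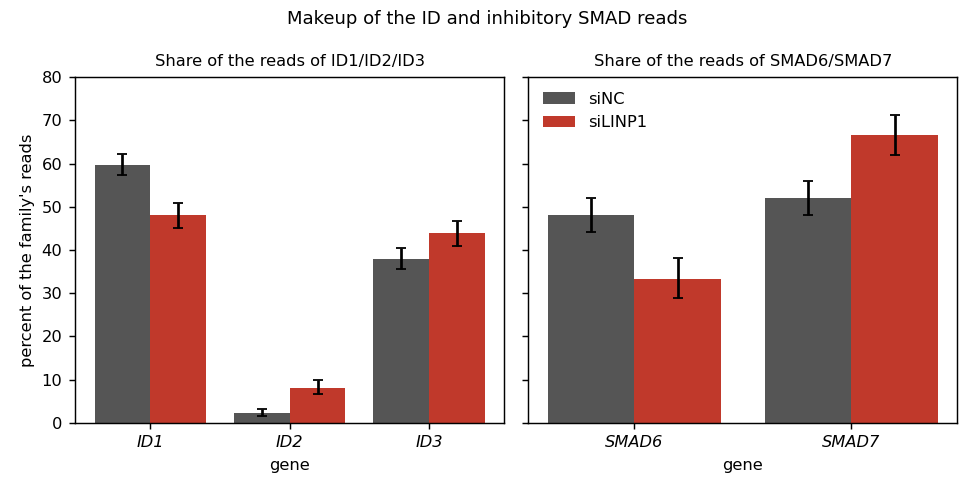
Percent of the reads of ID1, ID2 and ID3 together (left) and of SMAD6 and SMAD7 together (right) taken by each gene in siNC (grey) and siLINP1 (red), with Clopper-Pearson 95% intervals. ID2 made up 2.34% of its family in siNC and 8.15% in siLINP1, and SMAD6 made up 48.0% and 33.3% of its pair.

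The promoter windows of the ID genes are shown because these paralogs separated from each other. They lie in GRCh37 at chr20:30192842-30193141 (plus strand), chr2:8821936-8822235 (plus strand) and chr1:23885943-23886242 (minus strand), are written 5′ to 3′ in the direction of the gene, and have a GC content of 62.7%, 69.0% and 59.7%. Capitals mark TATAAA read on either strand, whose 2 matches in the window of ID1 overlap, and none of the letters searched was found in the windows of ID2 and ID3.
ID1 promoter: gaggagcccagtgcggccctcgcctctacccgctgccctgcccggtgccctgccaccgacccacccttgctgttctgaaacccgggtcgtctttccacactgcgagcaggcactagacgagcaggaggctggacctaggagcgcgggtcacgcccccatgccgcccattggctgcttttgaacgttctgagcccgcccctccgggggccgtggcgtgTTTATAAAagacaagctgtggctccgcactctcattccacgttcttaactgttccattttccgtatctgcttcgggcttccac
ID2 promoter: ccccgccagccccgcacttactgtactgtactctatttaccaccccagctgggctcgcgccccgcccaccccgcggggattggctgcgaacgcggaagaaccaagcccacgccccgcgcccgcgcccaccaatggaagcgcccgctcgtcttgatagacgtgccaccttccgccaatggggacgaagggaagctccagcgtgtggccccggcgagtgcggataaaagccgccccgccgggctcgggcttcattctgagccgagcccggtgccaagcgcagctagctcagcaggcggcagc
ID3 promoter: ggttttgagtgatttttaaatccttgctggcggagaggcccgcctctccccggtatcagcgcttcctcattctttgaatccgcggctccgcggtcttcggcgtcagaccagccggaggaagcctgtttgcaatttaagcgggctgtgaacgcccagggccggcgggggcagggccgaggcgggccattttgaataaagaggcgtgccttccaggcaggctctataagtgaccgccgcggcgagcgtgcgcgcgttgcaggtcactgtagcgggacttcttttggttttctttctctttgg

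The other genes of the pathway were described in lists by role, each set beside the shares of all genes given above. These lists were also drawn up with earlier results of these data known, so the shares cannot serve as a test. Among 13 receptors, all of them kept, 1 was higher and 1 lower past that fold, and the interval was wholly past 1.5-fold for 0. The higher one was BMPR1B, a BMP type I receptor with 42 and 71 reads, and the lower one ACVRL1, a receptor of endothelial cells with 14 and 5 reads. The other 11 receptors stayed within 1.5-fold, among them TGFBR1, TGFBR2, BMPR1A and BMPR2. TGFBR1 and TGFBR2, the pair that binds TGF-beta, had log2 fold changes of -0.08 (95% interval -0.30 to 0.14) and -0.16 (-0.26 to -0.069). BMPR1A had a log2 fold change of -0.11 (-0.32 to 0.093), and BMPR2, a BMP type II receptor, was higher at 0.49 (0.34 to 0.64) with 645 and 784 reads.
Of 14 signal SMADs and regulators, 1 was higher and 1 lower past 1.5-fold, with a median log2 fold change of 0.18. SMAD2, SMAD4 and SMAD5 lay between 0.08 and 0.22 on the log2 scale. SMAD1, which carries the BMP signal, was 1.56-fold lower with 161 and 89 reads (log2 fold change -0.65, 95% interval -1.04 to -0.26). PMEPA1, a TGF-beta-induced inhibitor that sequesters SMAD2 and SMAD3, was the only one of the list with the whole interval past 1.5-fold, at 2659 and 3942 reads (0.78, 95% interval 0.71 to 0.85).

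Of 13 further ligands, activators and traps of TGF-beta and activin, 2 lay higher and 2 lower past 1.5-fold, with a median log2 fold change of -0.07. The higher ones, INHBB with 4 and 6 reads and INHA with 11 and 19 reads, had intervals that include no change. The lower ones were GDF15 and DCN. GDF15, a stress-induced ligand of the wider TGF-beta superfamily and itself neither a TGF-beta nor an activin, had 853 and 490 reads (log2 fold change -0.59, 95% interval -0.75 to -0.43). Its value is within 1.5-fold under each other scaling tried. DCN, which encodes the proteoglycan decorin that binds TGF-beta, had 29 and 2 reads (-3.65, 95% interval -6.76 to -1.67). FST and FSTL3, secreted traps of activin, had log2 fold changes of 0.01 (-0.23 to 0.25) and 0.09 (0.019 to 0.17). Of the 13 genes, 4 lay above and 9 below no change. THBS1, with 28914 and 18414 reads, was lower at -0.44 (-0.47 to -0.41), GDF11 at -0.50 (-0.61 to -0.38) and LTBP4 at -0.36 (-0.44 to -0.28), all within 1.5-fold. LTBP3, also well read, stood at -0.03 (-0.087 to 0.036).
Of 12 BMP ligands and antagonists, 6 had at least 10 reads and the other 6 were barely read. BMP2, a ligand of the BMP branch, yielded 451 reads under siNC and 784 under siLINP1 and was 2.01-fold higher (log2 fold change 1.01, 95% interval 0.84 to 1.18), the only one of the list with its whole interval past 1.5-fold. BMP6, with 71 and 40 reads, was lower by more than 1.5-fold (-0.62, 95% interval -1.22 to -0.040). NOG, which encodes the secreted BMP antagonist noggin, had 132 and 110 reads (-0.05, 95% interval -0.43 to 0.32).

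Of 18 genes listed as TGF-beta targets, 17 were kept, with 7 higher and 2 lower past 1.5-fold. The whole interval lay past 1.5-fold for 6 higher genes and 1 lower gene, and the median log2 fold change was 0.32. The 4 with the furthest intervals were SPHK1, a sphingosine kinase, with 695 and 1632 reads (log2 fold change 1.44, 95% interval 1.31 to 1.57), JUNB, an AP-1 subunit, with 3960 and 8530 reads (1.32, 1.26 to 1.37), COL4A1, a basement membrane collagen, with 3230 and 5740 reads (1.04, 0.98 to 1.10), and BHLHE40, a repressor of transcription, with 953 and 1745 reads (1.08, 0.97 to 1.20). RHOB and PMEPA1, the latter also counted among the regulators above, were the other two. These genes also answer to other signals, and JUNB and RHOB are known as immediate early genes. CTGF, a matrix-associated growth regulator, was higher at 0.56 (0.44 to 0.67), whereas FN1, fibronectin, was lower at -0.40 (-0.54 to -0.27) and TGFBI, a secreted matrix protein, stood at -0.09 (-0.14 to -0.041).
The lower genes past 1.5-fold were COL1A1, a fibrillar collagen of mesenchymal cells with 190 and 79 reads (-1.06, 95% interval -1.45 to -0.67), and TAGLN, an actin-binding protein of contractile cells with 100 and 56 reads (-0.63, -1.13 to -0.14). COL1A1 is also 1 of 8 mesenchymal markers, of which 7 were kept and 3, COL1A1, PDGFRB and LUM, had their whole interval beyond a 1.5-fold fall. In the other direction 1, COL1A2 with 4 and 8 reads, was higher past 1.5-fold, with an interval from -0.69 to 3.39. Of the 7 markers kept, 6 lay below no change, with a median log2 fold change of -0.56, beside -0.023 over all genes kept. VIM was lower at -0.33 (-0.35 to -0.31) and CDH2, with 1862 and 1092 reads, at -0.56 (-0.67 to -0.45), both within 1.5-fold. The 8 markers ranged from 0.0132 to 1519 RPKM in siNC and from 0 to 1278 RPKM in siLINP1. They had 63753 and 43436 reads in all, mostly of VIM, and THY1 had 1 and 0 reads. The part of these marker differences in the lower COL1A1 and DCN was not tested.

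Of 9 further BMP targets, 8 were kept, 0 were higher and 1 was lower past that fold, and the interval was wholly past 1.5-fold for 0. The median log2 fold change was 0.03. The lower one was ATOH8, a helix-loop-helix factor with 34 and 16 reads (-0.88, 95% interval -1.83 to 0.019). MSX1 and BAMBI, a homeobox factor and a decoy receptor, were well read, with log2 fold changes of -0.00 (95% interval -0.17 to 0.16) and 0.08 (-0.13 to 0.29).

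**Figure D5:**
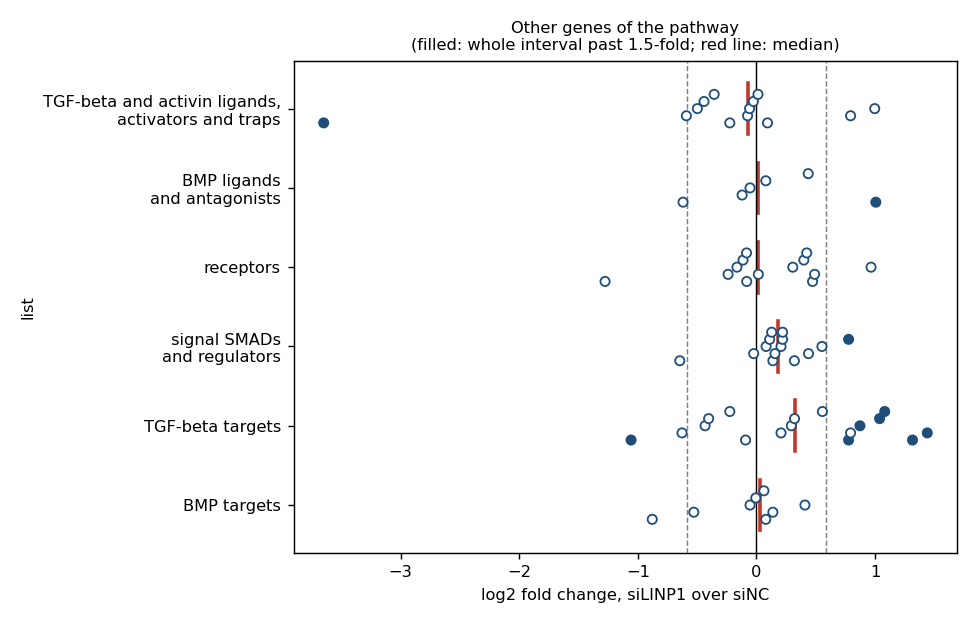
Log2 fold change, siLINP1 over siNC, of the other pathway genes with at least 10 reads in 6 lists by role (circles, filled where the whole 95% interval lies past 1.5-fold), with the list's median as a red line and dashed lines at 1.5-fold. The TGF-beta targets hold 6 filled genes on the higher side and 1 on the lower side, the receptors and BMP targets hold 0.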

How the data were processed

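The raw read counts per gene of 1 siNC and 1 siLINP1 library were analysed as deposited. Per the methods, the authors used Tophat2 for alignment to GRCh37/hg19, and HTSeq made the count of each gene. The submitters' processing notes also name HISAT2, Bowtie2 and HISAT, and versions, annotation and strand setting are not given in the sources used here. The RPKM values that the authors deposited equal the count divided by gene length and library total, and recomputed values were used with Poisson intervals. The table's 12 other columns of per-sample values were not used.

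Scaling used median-of-ratios size factors, 1.08 for siNC and 0.930 for siLINP1. Genes were kept when their reads in the pair of libraries came to 10 or more. A log2 fold change has no pseudocount, and its 95% interval was derived from the siLINP1 fraction of that gene's reads by the Clopper-Pearson method. Intervals of differences between genes use the normal approximation of the log odds. These intervals cover counting error only. The calculations were tested on simulated counts that held counting error only. Such counts cannot show how the intervals fare against variation between cultures.

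The genes and lists were chosen with earlier results of these data known. Named are the 9 genes, list members with the whole interval past 1.5-fold (at most 4 per list), TGFBR1, TGFBR2, BMPR1A, BMPR2, SMAD1, SMAD2, SMAD4, SMAD5 and LINP1. One further gene of that rule is not reported here. Other genes were named after their values were seen. PMEPA1, SKIL, LTBP2, SMAD9, BAMBI, NOG and GREM1 are in a pair of lists each. Promoters came from RefSeq, and 3′UTRs from GENCODE on GRCh37. Alternatives were other scalings, pseudocounts, minimum reads and folds. TMM factors came from edgeR 4.0.16 in R 4.3.3, and all else from Python 3.11.15 with scipy 1.17.1, pandas 2.3.3, numpy 2.4.6 and matplotlib 3.10.9.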

Additional observations from a re-analysis of the deposited data

How the results depend on the processing

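Of the 45 log2 fold changes of the 9 genes recomputed with other scalings or pseudocounts, 44 lay within the interval of the reported value. That of INHBA moved to 1.07 under total-count scaling. The values of SMAD3, SMAD7 and ID3, near 0, changed sign under total-count scaling, to 0.013, 0.071 and 0.020. That of SMAD7 was also positive under TMM factors (0.012) and under size factors from genes with at least 100 reads in both libraries (0.014). With a 2-fold criterion at the main scaling, 1 of the 9 genes was higher and 0 were lower. INHBA at 1.98-fold and SMAD6 at 1.86-fold then drop out. INHBA lay past 2-fold under total-count scaling (log2 fold change 1.07) and TMM factors (1.01). It also did so under size factors from genes with at least 100 reads in both libraries (1.01).

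Total-count scaling left 1 lower TGF-beta or activin ligand, activator or trap, 0 lower BMP ligands or antagonists, 2 higher and 0 lower signal SMADs and regulators, and 1 lower TGF-beta target, since GDF15, BMP6, SMAD1 and TAGLN then lay within 1.5-fold. TMM factors, and size factors from genes with at least 100 reads in both libraries, each left 1 lower TGF-beta or activin ligand, activator or trap, DCN, without GDF15. A pseudocount of 5 left 1 higher gene of that list and 0 lower BMP ligands or antagonists. A minimum of 1 read gave 2 higher and 4 lower BMP ligands or antagonists, and over all genes 7048 higher and 6456 lower. A minimum of 100 reads gave 0 higher and 1 lower TGF-beta or activin ligands, activators or traps, 0 lower receptors, 0 lower BMP targets, and over all genes 1163 higher and 903 lower. Ordered by raw counts, which also carry gene length, 2 of the 9 genes in siNC and 3 in siLINP1 kept their place in the order of levels. No paired analysis was possible because each condition has 1 library, and leaving out a replicate was not possible for the same reason. Depth limits TGFB2, ID2 and the list members with under 100 reads.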

Other observations

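The E proteins, which the ID proteins bind, were looked at after the values of the ID genes had been seen. TCF3 had 1061 reads in siNC and 1316 in siLINP1, a log2 fold change of 0.52 (95% interval 0.40 to 0.64). TCF12 had 2196 and 2167 reads (0.19, 95% interval 0.10 to 0.28) and TCF4 had 398 and 345 reads (0.00, 95% interval -0.21 to 0.21). All 3 stayed within 1.5-fold, and the values of TCF3 and TCF12 exceed counting error.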
